A study of Mus musculus with 9 samples.

Results

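The replication-dependent histone genes are the multicopy genes that supply the bulk of core and linker histones, and 63 of them were examined here among 21887 protein-coding mouse genes for peaks of the histone deacetylases Hdac1 and Hdac2. The members were chosen by current symbol alone, as the protein-coding genes named H1f1 to H1f6 or with an H2ac, H2bc, H3c or H4c number. Most were formerly named Hist1 or Hist2. No measured value is part of this rule, but it was set with earlier results of these data known. They comprised 6 linker histone H1 genes, 17 H2A, 16 H2B, 12 H3 and 12 H4 genes. By this rule 53 lay on chromosome 13 and 10 on chromosome 3. The rule gave 0 members on chromosomes 11 and 6, because the genes of those small clusters now carry other symbols (H2aw, H2bu2 and H4f16, described with the other histone genes).

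Chromatin immunoprecipitation followed by sequencing (ChIP-seq) had been done on haemogenic endothelium, a vessel-lining cell type from which blood cells emerge, differentiated in culture from mouse embryonic stem cells of strain C57BL/6. The groups were an Hdac1 antibody from Diagenode and an Hdac2 antibody from abcam, each used once in the lines Bry (passages 16 to 19), Hd1_loxlox and Hd2lox (both passages 25 to 30), with no treatment recorded. This gave 6 peak lists, 3 per antibody, each line being 1 library per antibody, and the 3 inputs were not analysed here. The names of the last 2 lines point to floxed alleles, but the labels do not describe the alleles, record no deletion and do not say whether a line is 1 clone. Bry therefore differed from the other lines in passage range as well as in line, and these cannot be told apart. Peak lists hold no expression values, so the cell type named by the labels could not be checked against its markers.

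Replication-dependent histone genes are transcribed in S phase, when new DNA has to be packed into nucleosomes. Most are short, lack introns and give messenger RNAs that end in a stem-loop in place of a poly(A) tail. They lie in clusters with many near-copies, and H2A and H2B genes often sit head to head and share a promoter. Hdac1 and Hdac2 remove acetyl groups from histone tails and are found in repressor complexes, yet they are also commonly detected by ChIP at active promoters. The genes studied here had a median annotated length of 492 bp.

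The lists held 5161 to 9279 peaks, 46202 in all, as positions on the mm10 build with no counts or heights, so read depth is unknown. A gene was called when a peak overlapped, by 1 bp or more, a window of 1000 bp either side of either annotated end. In the Hd1_loxlox Hdac2 list 2.71% of all protein-coding genes were called, against 13.5% to 34.4% in the other 5 lists. That list stands apart, and values without it are given where they differ. The Hd2lox Hdac2 list, with the 13.5%, also differed. Of its 9082 peaks, 2733 were at protein-coding gene ends, against 5942 of 7671 in Bry Hdac1. Its median peak width was 822 bp, against 1375 bp in Bry Hdac1.

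To show what lies under the peaks and beside them, promoters of 7 members are printed from RefSeq (GRCm38.p6, the assembly of mm10), each running 5′ to 3′ on the gene's strand from 250 bases before to 50 after the annotated start. H1f3 and H2ac13 are members with peaks in 3 lists, H2ac8 lay under the widest peak, and H2ac12 had the peak of Hd2lox. H4c12 and H4c11 are a couple with promoters 87.0% identical, of which 1 was called, and H3c8 is an H3 gene. H1f3, H4c12, H4c11 and H3c8 were picked after their values were seen, the others by the naming rule. Capitals mark the motif letters found on either strand.
H1f3, chr13:23554782-23555081, plus strand: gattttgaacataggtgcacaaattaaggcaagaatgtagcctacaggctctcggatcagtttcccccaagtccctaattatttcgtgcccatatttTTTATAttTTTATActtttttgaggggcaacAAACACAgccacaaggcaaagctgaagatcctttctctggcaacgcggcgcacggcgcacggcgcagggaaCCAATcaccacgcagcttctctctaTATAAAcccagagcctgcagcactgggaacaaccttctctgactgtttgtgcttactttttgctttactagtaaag
H2ac13, chr13:21716162-21716461, plus strand: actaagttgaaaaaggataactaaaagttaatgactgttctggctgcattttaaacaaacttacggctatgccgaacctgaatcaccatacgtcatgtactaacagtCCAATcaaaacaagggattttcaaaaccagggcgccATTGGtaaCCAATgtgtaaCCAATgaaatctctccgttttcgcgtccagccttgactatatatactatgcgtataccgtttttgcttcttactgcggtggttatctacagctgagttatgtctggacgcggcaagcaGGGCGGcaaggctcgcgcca
H2ac8, chr13:23571171-23571470, minus strand: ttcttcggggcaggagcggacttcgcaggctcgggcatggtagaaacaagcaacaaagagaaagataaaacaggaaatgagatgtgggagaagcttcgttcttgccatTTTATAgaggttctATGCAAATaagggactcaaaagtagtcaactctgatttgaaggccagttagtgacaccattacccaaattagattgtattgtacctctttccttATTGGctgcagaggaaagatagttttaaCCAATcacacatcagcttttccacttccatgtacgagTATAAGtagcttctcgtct
H2ac12, chr13:22035594-22035893, minus strand: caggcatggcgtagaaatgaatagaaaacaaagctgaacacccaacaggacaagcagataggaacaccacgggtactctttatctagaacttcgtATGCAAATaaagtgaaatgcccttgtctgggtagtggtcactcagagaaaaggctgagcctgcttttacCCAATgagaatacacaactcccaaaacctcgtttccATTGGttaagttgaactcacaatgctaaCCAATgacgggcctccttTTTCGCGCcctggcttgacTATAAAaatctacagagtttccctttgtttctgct
H4c12, chr13:21750504-21750803, minus strand: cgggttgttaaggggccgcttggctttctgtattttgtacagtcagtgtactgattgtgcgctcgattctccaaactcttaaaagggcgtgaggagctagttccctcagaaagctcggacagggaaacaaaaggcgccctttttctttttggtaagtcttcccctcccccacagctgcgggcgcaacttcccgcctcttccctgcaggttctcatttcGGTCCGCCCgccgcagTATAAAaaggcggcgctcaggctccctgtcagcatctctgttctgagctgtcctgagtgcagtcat
H4c11, chr13:21734784-21735083, plus strand: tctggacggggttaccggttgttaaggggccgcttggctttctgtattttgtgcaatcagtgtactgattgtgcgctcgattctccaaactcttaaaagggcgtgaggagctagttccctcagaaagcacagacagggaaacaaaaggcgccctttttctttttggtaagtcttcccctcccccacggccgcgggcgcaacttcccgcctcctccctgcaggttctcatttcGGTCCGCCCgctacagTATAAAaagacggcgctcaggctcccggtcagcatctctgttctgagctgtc
H3c8, chr13:23535168-23535467, plus strand: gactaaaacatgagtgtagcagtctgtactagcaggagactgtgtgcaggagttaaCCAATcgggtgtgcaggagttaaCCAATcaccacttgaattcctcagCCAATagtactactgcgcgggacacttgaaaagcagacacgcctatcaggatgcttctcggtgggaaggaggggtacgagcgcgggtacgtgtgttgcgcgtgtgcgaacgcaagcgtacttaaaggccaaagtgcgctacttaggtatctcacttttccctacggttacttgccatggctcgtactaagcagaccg

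Each motif was searched on both strands. The TATA box was searched as TATAAN, which includes the stricter form TATAAA. The CCAAT box was searched by those letters, the octamer of H2B promoters as ATTTGCAT, and the H4 site of the factor Hinfp by its part GGTCCG. The H1 box was searched as AAACACA. For E2F the forms were TTTGGCGC, then TTTCCCGC, and also TTTCGCGC. The GC box was searched as GGGCGG. RefSeq promoters matched 58 of the 63 members, with 59 promoters in all because H2bc6 has 2 starts, and they are set beside 32851 promoters of the same length. CCAAT was in 86.4% of member promoters against 37.4% of all promoters, TATAAN in 78.0% against 24.8%, and TATAAA in 57.6% against 13.6%. The octamer was in 22.0% against 1.74%, with 6 of 17 H2A and 7 of 15 H2B promoters holding it. The H4 letters were in 20.3% against 8.25%, held by 10 of 11 H4, 1 of 15 H2B and 1 of 10 H3 promoters. AAACACA was in 15.3% against 7.18%, held by 5 of 6 H1, 2 of 17 H2A and 2 of 15 H2B promoters. TTTCGCGC was in 15.3% against 0.323%, 5 of these being H2A and 4 H2B promoters, while TTTGGCGC was in 0 member promoters against 0.514% and TTTCCCGC in 1.69% against 1.07%. GGGCGG was about as common in members (39.0%) as in all promoters (35.7%). In H4c12 and H4c11 the printed GGTCCG runs into a GC box on the opposite strand, so the capitals there cover both. In H2ac13 the head-to-head partner H2bc13 begins 229 bp away, so most of the printed stretch is also the H2bc13 promoter. Annotated starts can differ from the start used in cells, as where the TATA letters of H4c11 fall at -2.

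Hdac peaks at these genes came almost entirely from Bry. The Bry Hdac1 list called 21 of 63 members (33.3%, Wilson 95% interval 22.9 to 45.6%) and the Bry Hdac2 list 17 (27.0%, 17.6 to 39.0%). Over all protein-coding genes the same lists called 31.9% and 34.4%. In Hd1_loxlox, Hdac1 was at 3 members (4.76%, 1.63 to 13.1%), although that list called 31.7% of all protein-coding genes, nearly the share of Bry. In Hd2lox, Hdac1 was at 2 members (3.17%, 0.875 to 10.9%) against 24.3% of all genes. The Hdac2 lists of Hd1_loxlox and Hd2lox called 0 of 63 members each, which allows a share of up to 4.76%, against 2.71% and 13.5% of all genes. These intervals and limits cover counting error only, and neighbouring members share peaks.

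**Figure D1:**
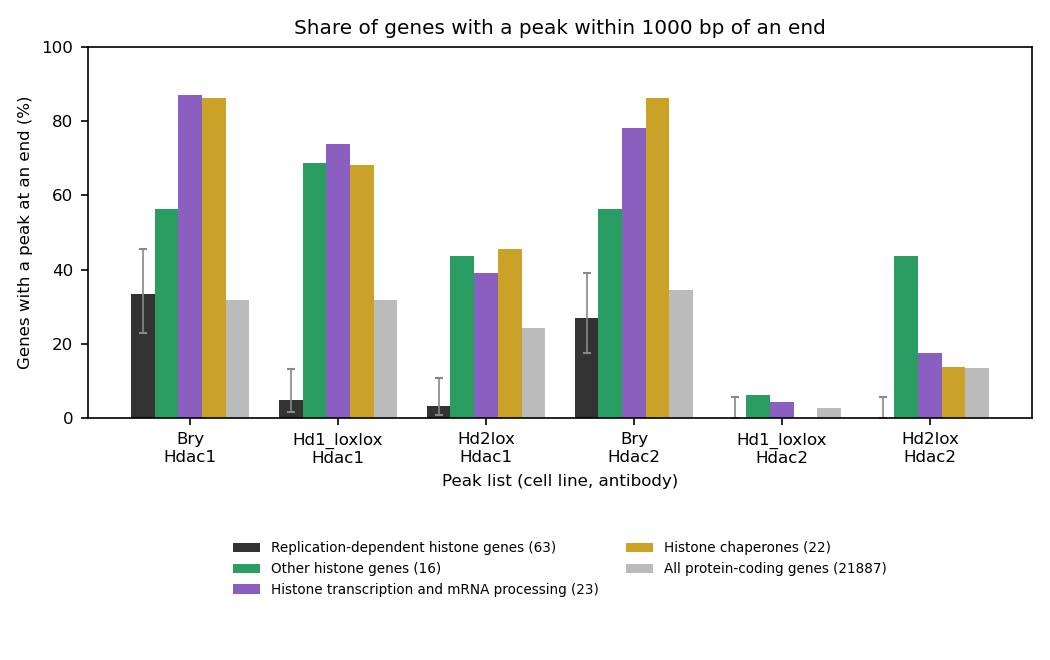
Share of genes with a peak within 1000 bp of an annotated end (vertical axis, percent) in each of the 6 lists (horizontal axis) for 4 gene lists and all protein-coding genes; grey error bars are Wilson 95% intervals for the 63 replication-dependent histone genes. Their bar is at 33.3% and 27.0% in the Bry lists and at 0% to 4.76% in the other 4.

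Line by line, the values of the 2 antibodies were closer to each other than the values of the 3 lines. Hdac1 lists called 8.67 ± 10.7 members on average and Hdac2 lists 5.67 ± 9.81 (SD, n = 3 lines each), a difference of 3 genes that was smaller than the spread between lines (exact two-sided permutation p = 0.5, where 0.1 is the smallest possible). Hdac1 exceeded Hdac2 in each of the 3 lines (21 and 17, 3 and 0, 2 and 0). Over all protein-coding genes the Hdac1 share was also the larger in Hd1_loxlox (31.7% and 2.71%) and in Hd2lox (24.3% and 13.5%). In Bry the Hdac1 share of all genes was the smaller (31.9% and 34.4%). Without the Hd1_loxlox Hdac2 list the difference in mean members called was 0.167 genes. At least 2 of 3 Hdac1 lists called 3 members (4.76%), against 30.2% of all protein-coding genes, and these were H2bc13, H2ac13 and H1f3. Without Bry, or without Hd1_loxlox, the 2 remaining Hdac1 lists shared 0 members. At least 2 of 3 Hdac2 lists called 0 members, against 10.6% of all genes. All 3 lists of an antibody together called 0 members, against 14.6% of genes for Hdac1 and 0.603% for Hdac2.

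Over the 6 lists, 30 members (47.6%) had a peak in any list, the same share as all genes (47.8%), but few recurred. A peak in at least 3 lists was found at 3 members (4.76%) against 28.7% of all genes, and in at least 4 lists at 0 members against 16.2%. Of the 30, 20 were in 1 list, 7 in 2 and 3 in 3, and all 30 were in a Bry list. The Bry Hdac1 list and no other held 13 members (20.6%), against 1.74% of all genes. Both Bry lists held 8 members (12.7%), against 26.3% of all genes. Lists other than those of Bry called 5 members (7.94%), against 40.5% of all genes. At least 1 Hdac1 list called 23 members (36.5%) against 43.2% of genes, and at least 1 Hdac2 list 17 (27.0%) against 39.4%.

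Genes called by Hdac1 in Bry were mostly called again in Hd1_loxlox, and histone genes mostly were not. Of 6989 protein-coding genes with a Bry Hdac1 peak, 79.6% had an Hd1_loxlox Hdac1 peak and 52.1% an Hd2lox Hdac1 peak. Of the 21 histone genes with a Bry Hdac1 peak, 3 (14.3%) and 0 had them. Between the antibodies within Bry, 82.4% of those 6989 genes also had an Hdac2 peak, against 8 of the 21 histone genes (38.1%). The histone genes counted here come from 10 Bry Hdac1 peaks, so the shares rest on few independent sites. Each line had 1 library per antibody, and a contrast of Bry with the other lines was given no test.

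**Figure D2:**
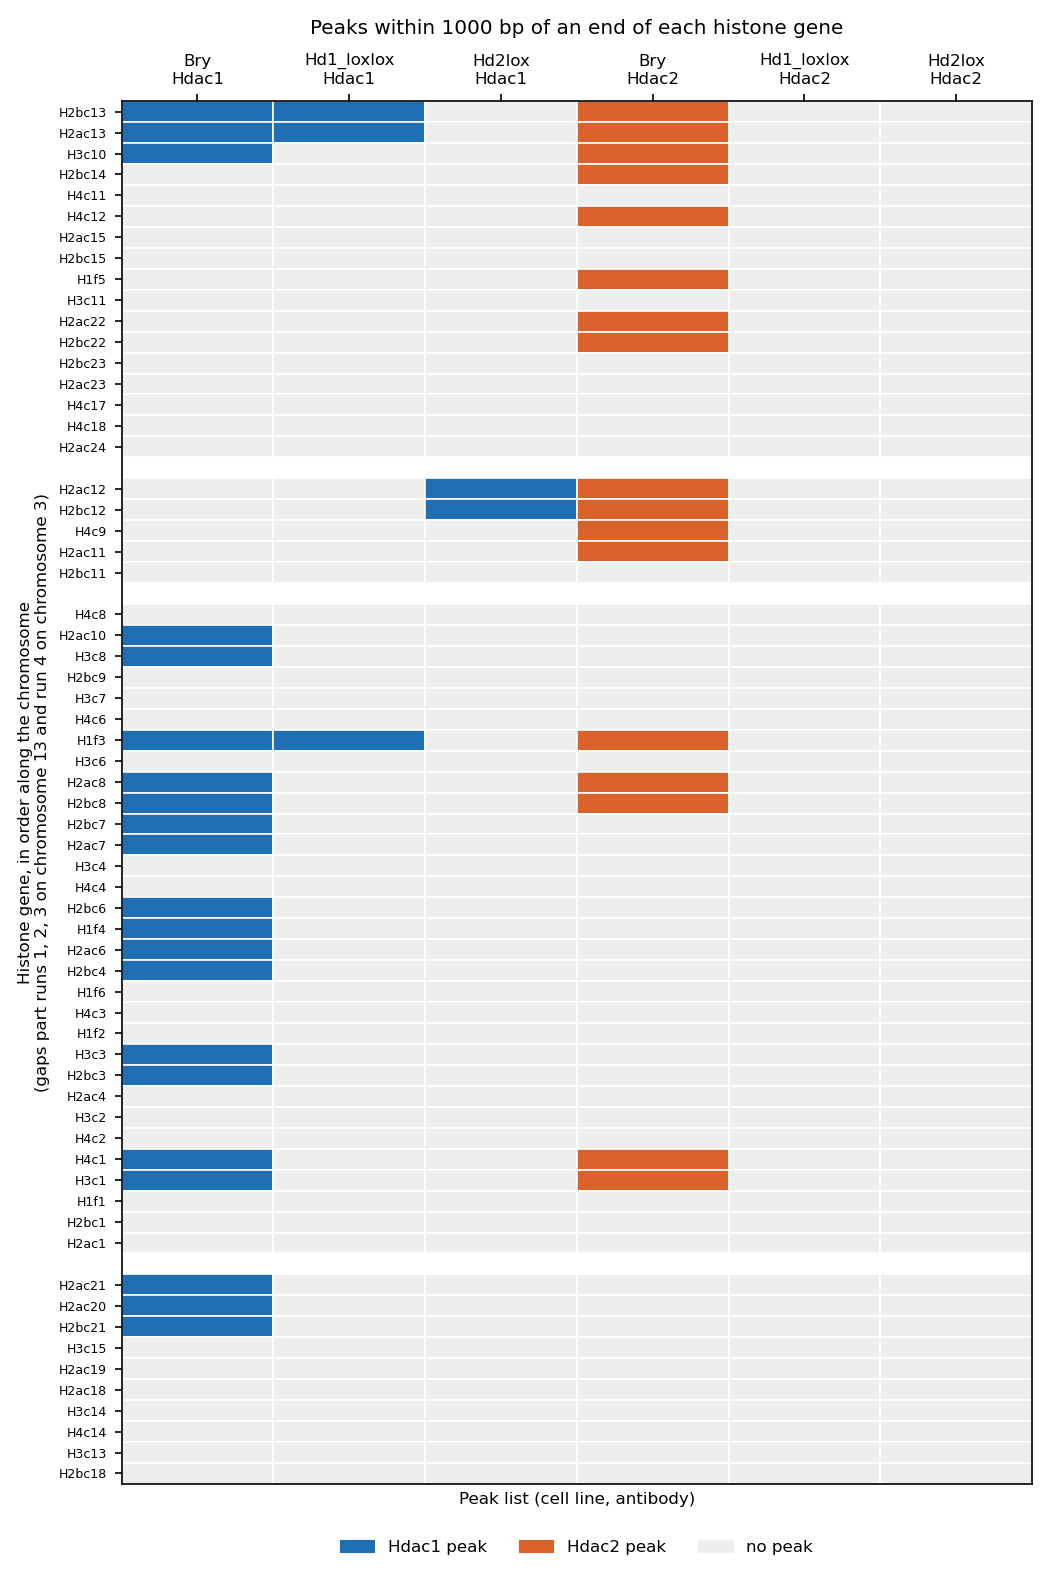
Presence of a peak within 1000 bp of an end (filled) or its absence (pale) for each of the 63 histone genes (rows, in chromosomal order, gaps parting the 4 runs of neighbours) in the 6 lists (columns). The filled cells lie in the Bry columns apart from H2bc13, H2ac13 and H1f3 in Hd1_loxlox Hdac1 and H2ac12 and H2bc12 in Hd2lox Hdac1.

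The members fell into 4 runs in which neighbours were under 200 kb apart, and in Bry the counts of the antibodies differed from run to run. Over all protein-coding genes Bry Hdac1 called 31.9% and Bry Hdac2 34.4%. Run 1 on chromosome 13 (21715711-21833475, 17 genes from H2bc13 to H2ac24) had Hdac1 at 3 members and Hdac2 at 8 in Bry. Run 2 (22035122-22043658, 5 genes from H2ac12 to H2bc11) had Hdac1 at 0 and Hdac2 at 4. The gene H4bc24 (21833743-21837530) lies next to H2ac24, but its symbol did not match the rule. If it were counted as a member, the limit of 200 kb would join runs 1 and 2. It had no peak in any list. Run 3 (23531044-23934913, 31 genes from H4c8 to H2ac1) had Hdac1 at 15 and Hdac2 at 5. Run 4 on chromosome 3 (96219885-96270192, 10 genes from H2ac21 to H2bc18) had Hdac1 at 3 and Hdac2 at 0. In runs 1 and 2, 9 members had a Bry Hdac2 peak alone of the Bry lists and 0 an Hdac1 peak alone. In runs 3 and 4 it was 0 and 13. Each Bry list is 1 library, so this split has no replicate check, and in the other lines it could not be examined because 1 Hdac1 list had 2 peaks at members, another had 1, and the Hdac2 lists had 0.

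**Figure D3:**
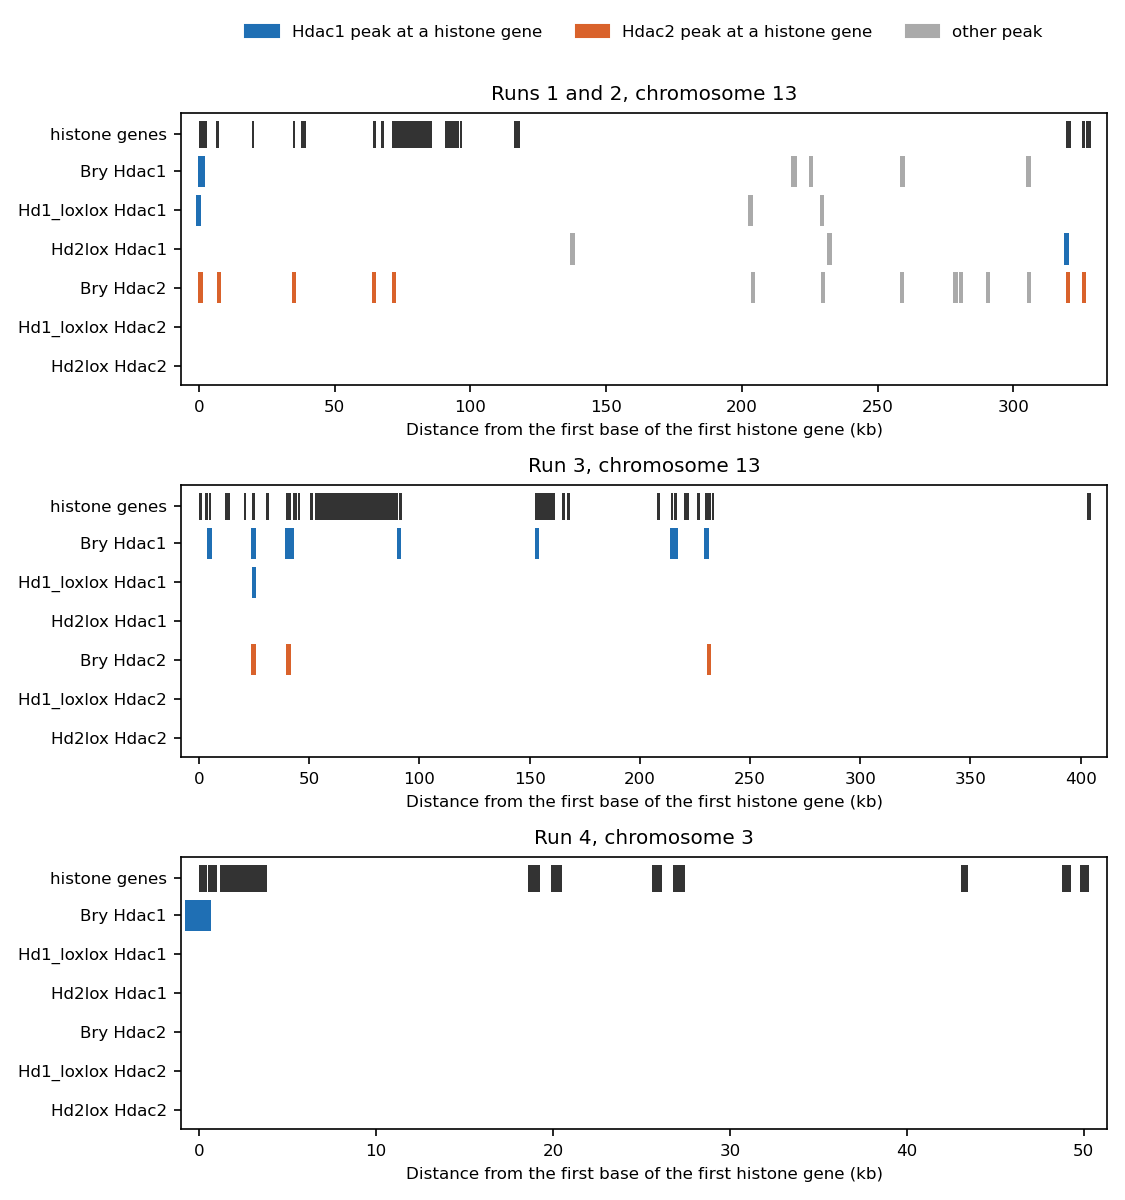
Position of histone genes (black) and peaks in the 6 lists, as distance in kb from the first base of the first gene, for runs 1 and 2 together, run 3 and run 4; peaks at histone genes are coloured by antibody, other peaks are grey, and small features are widened to stay visible. Bry Hdac2 has 7 coloured peaks in runs 1 and 2 and 3 in run 3, while Bry Hdac1 has 1 in run 1, 8 in run 3 and 1 in run 4.

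The stretches inside the runs held no peaks away from members. All 23 peaks of the 6 lists inside the 4 runs, extended by 1000 bp, lay at members. The 6 other protein-coding genes inside the runs, Hfe, an iron regulator, Trim38, and the transporter genes Slc17a1 to Slc17a4, had no end peak in any list. The 34 protein-coding genes nearest to the runs (up to 5 on each side) include H4bc24. They also include olfactory (Olfr) and vomeronasal (Vmn1r) receptor genes, none with a peak in any list. The shares of the 34 depend on this make-up. Bry Hdac1 called 7 of the 34 (20.6%, against 31.9% of all protein-coding genes) and Bry Hdac2 5 (14.7%, against 34.4%). Hd1_loxlox Hdac1 called 6 (17.6%, against 31.7%) and Hd2lox Hdac1 2 (5.88%, against 24.3%). Carmil1 was in 6 lists and Otud7b in 4. Between runs 1 and 2 lies a stretch of 199.6 kb with 31 transfer RNA (tRNA) genes, an addition made after the data were seen. That stretch held 4 Bry Hdac1 peaks and 7 Bry Hdac2 peaks, of which 4 and 5 were within 1000 bp of a tRNA gene, 2 peaks in each of the other Hdac1 lists and 0 in the other Hdac2 lists. Over all 408 tRNA genes, another multicopy class, 24.8% had a peak within 1000 bp in Bry Hdac1, 23.5% in Hd1_loxlox Hdac1 and 3.43% in Hd2lox Hdac1. The Bry and Hd1_loxlox Hdac1 counts at the histone genes were 21 and 3 of 63, and the difference from tRNA genes was not tested.

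By class, larger shares of H2A and H2B genes than of H3 and H4 genes were called, a description of the counts with no test. In any list, 10 of 17 H2A genes, 10 of 16 H2B genes, 4 of 12 H3 genes, 3 of 12 H4 genes and 3 of 6 H1 genes had a peak. For Bry Hdac1 the counts were 7 H2A, 7 H2B, 4 H3, 1 H4 and 2 H1 genes, and for Bry Hdac2 they were 5, 5, 2, 3 and 2. Over all protein-coding genes 47.8% were called in any list, 31.9% in Bry Hdac1 and 34.4% in Bry Hdac2. H2A and H2B genes that stand head to head can share a peak, so their counts are not independent. Called and uncalled members could also be set side by side by promoter. Of 28 promoters of called members, 19 held TATAAA, 9 the octamer and 8 TTTCGCGC, against 15, 4 and 1 of 31 promoters of uncalled members. The H4 letters GGTCCG were in 2 and 10 of them. The broader TATA form TATAAN was in 22 (78.6%) and 24 (77.4%), CCAAT in 26 and 25, AAACACA in 4 and 5, and GGGCGG in 10 and 13. Of the other E2F forms, TTTCCCGC was in 1 and 0, and TTTGGCGC in 0 and 0. These are descriptions, since promoters of a pair share letters and class goes with motif. The median GC content was 44.0% in called members, 47.7% in uncalled members and 52.7% over all promoters.

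H1f3 (chromosome 13, 23555032-23555807, plus strand), which encodes a linker histone H1 variant, was 1 of the 3 members in 3 lists and was chosen after its values were seen. Its Bry Hdac1 peak lay at 23554718-23556388 (1671 bp), the Bry Hdac2 peak at 23554746-23555864 (1119 bp) and the Hd1_loxlox Hdac1 peak at 23554889-23555852 (964 bp). The 3 peaks share 964 bp that cover the annotated start printed above and the whole gene. The other 3 lists had no peak there. In Bry the Hdac1 peak was wider than or as wide as 72.2% of its list, whereas in Hd1_loxlox it was so for 4.29% of the list.

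H2bc13 (21715711-21716183) and H2ac13 (21716412-21716859), which encode H2B and H2A and open run 1, were in the same 3 lists. The Bry Hdac1 peak at 21715233-21717940 (2708 bp) covered both starts and that of H3c10, an H3 gene. The Bry Hdac2 peak at 21715346-21716846 (1501 bp) covered the starts of H2bc13 and H2ac13. The Hd1_loxlox Hdac1 peak at 21714713-21716076 (1364 bp) ended before the H2bc13 start, inside that gene, so it lies over the downstream part of H2bc13. All 3 peaks share 731 bp.

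The widest peak at any member was the Bry Hdac1 peak at 23570030-23574144 (4115 bp), as wide as or wider than 99.6% of that list. It covered H2ac8, H2bc8 and part of H2bc7 and came within 1000 bp of H2ac7, all H2A or H2B genes. The Bry Hdac2 peak there, at 23570513-23572591 (2079 bp), lay within it and covered H2ac8 and H2bc8. The 5 widest peaks also included the Bry Hdac1 peak at H2bc13 and 2 further Hdac1 peaks in Bry, at H4c1 and H3c1 (23760337-23762379, 2043 bp) and at H1f4 and 1 end of H2bc6 (23620866-23622883, 2018 bp). At H4c1 and H3c1 the Bry Hdac2 peak (23761426-23762548, 1123 bp) lay over H3c1 and did not reach the H4c1 gene.

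The remaining Bry Hdac1 peaks on chromosome 13 were all in run 3. A peak at 23534860-23536306 (1447 bp) covered the start of H3c8, an H3 gene, and came within 1000 bp of H2ac10. A peak at 23683265-23685126 (1862 bp) covered H2ac6 and the lower end of H2bc4. At H3c3 and H2bc3, an H3 and an H2B gene, 2 separate peaks (23744885-23745756, 872 bp, and 23746359-23747628, 1270 bp) each covered the start of 1 gene. None of these sites had a peak in another list.

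The Bry Hdac2 peaks with no counterpart in another list lay in runs 1 and 2. They covered the starts of H4c12, of the linker histone gene H1f5 (21779368-21780808, 1441 bp), of H2ac22 with H2bc22 (21786719-21788074, 1356 bp) and of the H4 gene H4c9 (22040884-22041807, 924 bp), the last coming within 1000 bp of H2ac11. The peak at the H2B gene H2bc14 (21722304-21723177, 874 bp) lay over the downstream part of the gene and did not cover its start.

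H2ac12 (22035122-22035643) and H2bc12 (22035821-22036320), a head-to-head pair of H2A and H2B genes, carried the peak of Hd2lox. That Hdac1 peak lay at 22034496-22035817 (1322 bp), and the Bry Hdac2 peak at 22034948-22036013 (1066 bp), with 870 bp in common. The Bry Hdac1 list had no peak at either gene. This was the only site at a member where a list of another line had a peak and Bry Hdac1 did not.

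**Figure D4:**
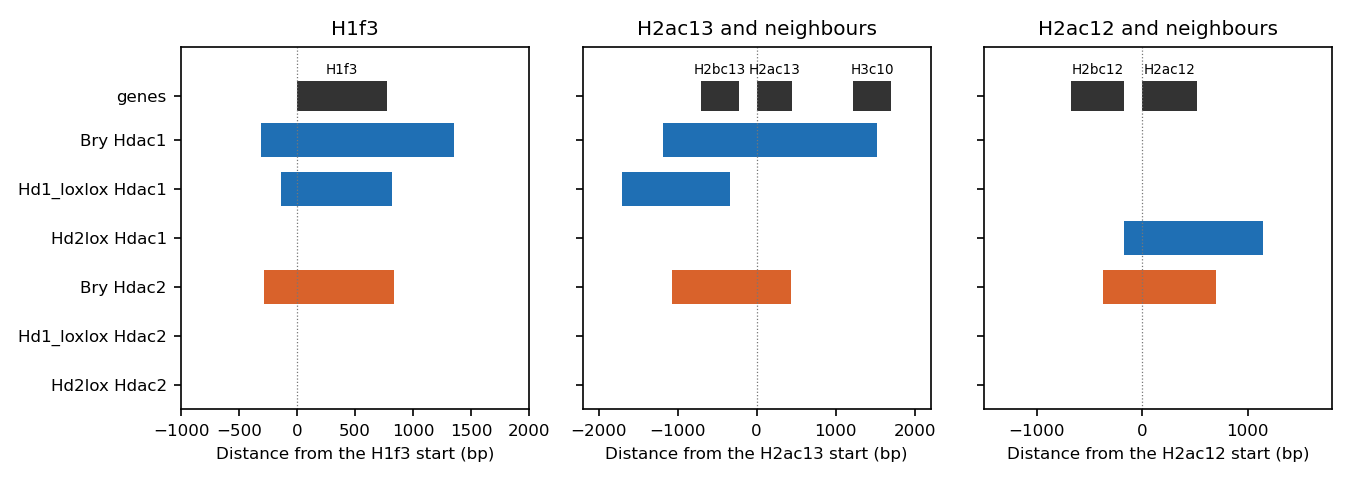
Genes (black) and peaks of the 6 lists (blue Hdac1, orange Hdac2) as distance in bp from the annotated start of H1f3, H2ac13 and H2ac12, each read in the direction of the gene. The 3 peaks at H1f3 overlap over the gene, whereas at H2ac13 the Hd1_loxlox Hdac1 peak ends before the start.

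Head-to-head H2A and H2B pairs, with starts 164 to 281 bp apart on opposite strands, numbered 9 where both strands were known. A peak reached the stretch between the starts at 4 pairs in any list, H2bc13 with H2ac13, H2ac22 with H2bc22, H2ac12 with H2bc12, and H2ac8 with H2bc8. Bry Hdac2 did so at all 4 of these pairs and Bry Hdac1 at 2. The pairs H2ac15 with H2bc15, H2bc23 with H2ac23, H2ac11 with H2bc11, and H2bc7 with H2ac7 had 0 lists there, as did the testis pair H2bc1 with H2ac1. H2ac6 beside H2bc4 and H2ac20 beside H2bc21 were left out, because the strands of H2bc4 and H2bc21 were not known here. The Bry Hdac1 peak at 23683265-23685126 covered the stretch between H2ac6 and H2bc4, where Bry Hdac2 had no peak. The Bry Hdac1 peak at H2ac20 ended inside that gene.

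The 23 peaks at members came from 16 separate regions, of which 11 were in 1 list, 3 in 2 lists and 2 in 3 lists. Of these regions 6 were in Bry Hdac1 alone, 5 in Bry Hdac2 alone, and 4 held both Bry lists. A single peak was at 1 member in 6 cases, at 2 members in 13 and at 3 or 4 members in 4. All 23 peaks overlapped the body of a member. Starts were known for the 58 members with a RefSeq promoter. Of the 23 peaks, 20 covered such a start, and the peak centre was a median of 236.5 bp from the nearest one. The 5 members without a known start include H3c1, which the Bry Hdac2 peak at 23761426-23762548 covered whole. The 20 is therefore a lower limit and the 236.5 bp an upper limit. In Bry, 2.1 members were called per Hdac1 peak and 1.7 per Hdac2 peak, against 1.18 and 1.15 genes per peak over all protein-coding gene ends.

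Peaks at members were widest for Bry Hdac1. In Bry, the 10 Hdac1 peaks were 872 to 4115 bp wide with a median of 1766.5 bp, above the 1414 bp median of all peaks at gene ends in that list, and the 10 Hdac2 peaks were 874 to 2079 bp wide with a median of 1239.5 bp, below the 1376 bp of theirs. The 2 Hd1_loxlox Hdac1 peaks (964 and 1364 bp) and the Hd2lox Hdac1 peak (1322 bp) were narrower than the median of gene-end peaks in their lists, 1498 and 1462 bp. The median width was 1417.5 ± 312.4 bp for Hdac1 (SD, n = 3 lists) and 1239.5 bp in the 1 Hdac2 list with any such peak (difference 178 bp, exact two-sided permutation p = 0.75, where 0.25 is the smallest possible). Hdac1 lists had 4.33 ± 4.93 separate peaks at members and Hdac2 lists 3.33 ± 5.77 (SD over 3 lists each; exact two-sided permutation p = 0.6), with 10 and 10 in Bry. That difference of 1 peak became -0.667 without the Hd1_loxlox Hdac2 list.

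**Figure D5:**
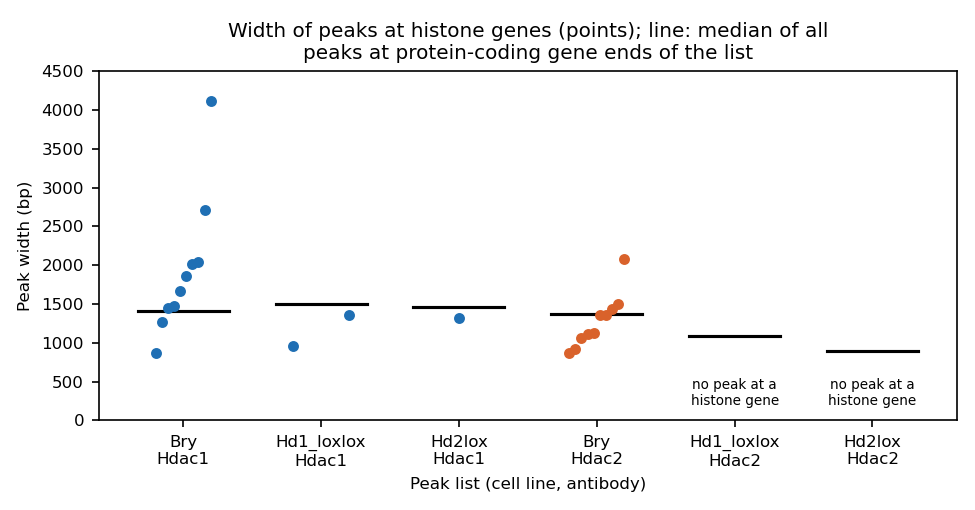
Width in bp of each peak at a histone gene (points, spread sideways for visibility) in the 6 lists, with the median width of all peaks at protein-coding gene ends of the list (black line). In Bry Hdac1 the points reach 4115 bp and their median is above the line, and in the other lists with peaks it is below.

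The 33 members with no peak in any list were 9 in run 1, 1 in run 2, 16 in run 3 and 7 in run 4. They include the first gene of run 3, H4c8, and the last genes of all 4 runs, H2ac24, H2bc11, H2ac1 and H2bc18. The testis-specific genes H1f6, H2bc1 and H2ac1 had no peak. H1f2 and H1f1, linker histone genes of run 3, also had none. On chromosome 3 the single Bry Hdac1 peak (96219073-96220550, 1478 bp) lay at H2ac21 and H2ac20, within 1000 bp of H2bc21, and the 7 remaining genes had none.

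Some uncalled members have a promoter similar to that of another member. Of 58 member promoters, 6 were at least 80% identical to their closest fellow member, and 1 of the 6 belonged to a called member. The printed H4c12 and H4c11 promoters are 87.0% identical, and of them H4c12 had a Bry Hdac2 peak (21749938-21751298, 1361 bp) and H4c11 had none. The promoters of H4c17 and H4c18 are 99.0% identical and neither had a peak. On chromosome 3 the promoters of H3c15 and H3c14 are 89.7% identical and those of H2ac19 and H2ac18 72.7%, and none of these 4 genes had a peak. Called members can also have a fellow member with a partly similar promoter, below that 80%. The promoters of H2ac7 and H2ac23 are 78.7% identical and those of H2bc7 and H2bc23 73.3%. H2ac7 and H2bc7 were called in Bry Hdac1, and H2ac23 and H2bc23 in no list. How reads that fit several copies were placed is not given in the sources used here. Calls at genes where reads fit several copies are therefore uncertain. Which members these are, and the part of this in the missing peaks, was not tested. The median identity of a member promoter with its closest fellow member was 53.5% (54.3% for called and 53.3% for uncalled members).

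In each Hdac1 list, other histone genes and genes that act on histones had larger shares called than the 63 members, as the plot of shares shows. Of 16 other histone genes matched among 18 names, mostly variants made outside S phase together with the small clusters on chromosomes 11 and 6, 10 (62.5%) were called in at least 2 of 3 Hdac1 lists (30.2% over all genes) and 6 (37.5%) in at least 2 Hdac2 lists (10.6%). H1f10, a linker variant, was in 6 lists, and H2az1 and H2az2, which encode H2A.Z, H3f3a, which encodes H3.3, and Macroh2a1 were in 5 each. H1f0, a linker variant of resting cells, was in 4 lists, as was H2bu2 of the chromosome 11 cluster. H2aw of that cluster was in 3. Unlike most of the 63 members, H2aw and H2bu2 were each in both Bry lists and in Hd1_loxlox Hdac1, and both count among the 10. H4f16 of chromosome 6, H3f3b, Cenpa, H1f7 and H1f8 were in no list. Of the 16, 11 were in at least 1 list, against 47.8% of all protein-coding genes.

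Of 23 genes for histone gene transcription and the 3′ end processing of their messenger RNAs, 17 (73.9%) were in at least 2 Hdac1 lists. In at least 2 Hdac2 lists there were 4 (17.4%). Over all protein-coding genes the shares were 30.2% and 10.6%. E2f1, Yy1, Pou2f1, which binds the octamer, and the cyclin gene Ccne2 were in 5 lists. Ccne1, Eri1, a nuclease that trims histone messenger RNA, Lsm11, part of the U7 particle, and Ncbp1 were in 4. Npat, the coactivator of histone genes, Hinfp, the H4 promoter factor, and Slbp, the stem-loop binding protein, were each in both Bry lists and in Hd1_loxlox Hdac1, but not in the 2 Hd2lox lists. Of 22 histone chaperone genes, 15 (68.2%) were in at least 2 Hdac1 lists and 3 (13.6%) in at least 2 Hdac2 lists. The shares over all protein-coding genes were again 30.2% and 10.6%, so the Hdac2 share was near that of all genes. Asf1a, a carrier of H3 and H4, Nap1l1 and Ubn1 were in 5 lists. Hira, which deposits H3.3, Ssrp1 and Supt16, which form the FACT complex, Nap1l4, Rbbp7 and Ubn2 were in 4. In Hd1_loxlox Hdac1, 17 of the 23 and 15 of the 22 were called, beside 3 of the 63 histone genes and 31.7% of all protein-coding genes. These lists are described by their counts, and no test compared them.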

How the data were processed

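The authors deposited, for each of 6 ChIP libraries, a list of peak positions (other values such as scores, summits or counts are not in the lists used). Per the submitters' processing notes the tools were bcl2fastq, Bowtie2 2.2.9, SAMtools 1.3.1 and MACS2 2.1.1.20160309, on build mm10. Not given in the sources used here are the threshold, the use of input and the placing of reads with several matches. Starts were converted to 1-based positions. Genes and their outer ends came from RefSeq (GRCm38.p6). Calls used windows of 1000 bp around both ends, computed with Python 3.11.15 and numpy 2.4.6, and the overlap code was tested on simulated data. Read depth is unknown, so a gene with no peak may have had too few reads.

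Lists were compared as 3 lines against 3 with exact permutation tests. Hdac1 and Hdac2 lists are paired by line, as the labels name the line of each. The labels do not say that libraries came from separate cultures, so p-values reflect only how these samples vary, in part perhaps for technical reasons. The median width could be tested in 3 lists against 1 only. Genes were named by rule: members in 5 or 6 lists, in all 3 lists of an antibody and at most 1 of the other, or in the Hd1_loxlox Hdac2 list (none met these), members under the 5 widest peaks, runs with under 5 members, first and last members of runs, and testis genes. From the other gene sets, genes in at least 4 peak lists were named. Outside this rule, Npat, Hinfp, Slbp, H2aw, H3f3b, H4f16, Cenpa, H1f7, H1f8, H4bc24 and the other genes inside the runs were also named. Further members were named after their values were seen, to account for every peak. Members, lists and tests were chosen with earlier results of these data known.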

Additional observations from a re-analysis of the deposited data

How the results depend on the processing

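Windows of 500 bp, windows of 2000 bp, the gene body alone, the annotated start alone, an overlap of 200 bp or more, and the pairing by line kept the direction of every difference between antibodies. The number of members in at least 2 of 3 Hdac1 lists was 3, and it became 0 among peaks at or above the median width of each list, 1 when a peak counted for the nearest gene alone, 0 in all 3 lines and 23 in any line; the corresponding Hdac2 count of 0 became 17 in any line. Leaving out 1 line at a time, the Hdac1 count ranged from 0 (without replicate 1, Bry, or replicate 2, Hd1_loxlox) to 3, the difference in members from 2.5 to 3.5, in separate peaks from 0.5 to 1.5, and in median width from 225.75 to 304.75 bp. Without Hdac2 replicate 2, the Hd1_loxlox Hdac2 list, the difference in separate peaks turned to -0.667, because the mean Hdac2 number is then over fewer lists of 0. With the lines as pairs (replicate block), a sign-flip permutation test gave p = 0.25 for the difference of 3 members, the smallest this pairing allows, and p = 0.5 for the difference of 1 peak; for width it left 1 pair, with a difference of 527 bp and no test. Without Bry no Hdac2 list had a peak at a member, so width could not be compared. Read depth is unknown, which limits what an absent peak means.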
